A study of Mus musculus with 6 samples.

Results

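Cadherins are the adhesion molecules that hold neighboring cells together at adherens junctions, and catenins are the cytoplasmic proteins that tie them to the actin cytoskeleton. The genes described here are 6 cadherins (Cdh1, Cdh2, Cdh3, Cdh10, Cdh11 and Cdh13), 3 catenins (Ctnna1, Ctnnb1 and Ctnnd1) and Ncam1, a neural cell adhesion molecule of the immunoglobulin superfamily. Every probe set annotated to these 10 genes was taken, which gave 32 of the 34945 probe sets with 1 gene on the array. Gene expression was measured on 6 Affymetrix mouse genome arrays. Of these, 3 came from primary chondrocytes of Slc39a13-KO mice and 3 from primary chondrocytes of wild-type mice. The KO mice lack a block of exons of Slc39a13, a zinc transporter gene of the SLC39/ZIP family, in whose place a Neo cassette was inserted in embryonic stem cells. Rib cartilage of newborn mice was digested with collagenase and the cells were cultured. No sort is described, and other cells of the rib cage may have been carried along. Sex, strain and the number of animals behind each array are not given in the sources used here. Nothing states that replicates came from separate cultures, so a p-value speaks only for the spread among these 6 arrays, which may be technical. In such cultures, fewer cells of a type and less RNA per cell cannot be told apart.

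A classical cadherin binds the same cadherin on the next cell in the presence of calcium. Its cytoplasmic tail binds beta-catenin, beta-catenin binds alpha-catenin, and alpha-catenin reaches actin, while p120-catenin binds closer to the membrane and holds the cadherin at the cell surface. Beta-catenin has a second role as the transcriptional coactivator of canonical Wnt signaling. N-cadherin and Ncam1 are known from the mesenchymal condensations that come before cartilage, and both are known to decline as the cells become chondrocytes.

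The targeted gene was read first. Slc39a13 had signals of 100.5, 196 and 165 on the KO arrays and 901, 1081 and 991 on the wild-type arrays, a log2 difference of -2.67 (limma, adjusted p = 0.000533). Whether this probe set lies within the removed exons was not examined. All 12 chondrocyte markers on the array passed the filter on dim probe sets, and Col2a1, the main collagen of cartilage, had signals from 40475 to 62818 in KO and from 29852 to 37219.9 in wild-type cells. The log2 difference of Col2a1 was 0.50 and did not reach an adjusted p of 0.05 (limma, adjusted p = 0.0981). Of 19 chondrocyte probe sets 7 were higher and 0 were lower in KO cells, against 3.44% higher and 3.36% lower over the whole array. The largest of these log2 differences were those of Acan (0.91, limma, adjusted p = 0.00666) and Col11a2 (0.91, 0.00402), then Comp (0.76, 0.00629) and Col9a1 (0.62, 0.0378), all genes of the cartilage matrix. The lowest in the list was that of Matn1, at -0.40 (limma, adjusted p = 0.262). Of 7 macrophage and 5 endothelial probe sets 0 passed in either direction. The endothelial ones came from 2 of 8 genes, and the other endothelial genes were under the filter. Among these, Esam had 38.5, 5.02 and 7.08 in KO and 106, 78.0 and 148 in wild-type cells. Tie1 had 5.97, 4.44 and 5.78 in KO and 4.16, 3.20 and 2.29 in wild-type cells. All of these Tie1 signals lay below 7.96, the 10th percentile of all values on the arrays. The lowest p-values were those of the macrophage markers Cd14, at -1.55 (adjusted p = 0.0509), and Lyz2, at 1.05 (0.118), and of the endothelial markers Egfl7, at 0.96 (0.193), and Kdr, at 0.26 (0.749). The array of KO replicate 1 stood apart from the rest, with correlations of 0.940 to 0.950 with the other arrays, which among themselves correlated at 0.960 to 0.980. Its median signal was 108, against 80.7 to 88.4 on the others.

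Over the whole array 6.8% of 23309 tested probe sets passed the threshold of an adjusted p of 0.05 (limma with Benjamini-Hochberg adjustment over all of them), 3.44% higher (802) and 3.36% lower (784) in KO cells. With each array centred on its median these were 131 higher and 260.0 lower. Among the cadherin, catenin and Ncam1 probe sets, 22 of 32 were bright enough to be tested. Of these 1 passed, which is 4.55%, against 6.8% of the array. A count of 1 is too small to tell these shares apart. The probe set that passed was higher in KO cells, and 0 were lower. At an unadjusted p under 0.05 there were 5, against 22.6% of all tested probe sets. The KO and wild-type signals did not overlap for 4 of the 22, against 28.8% of all tested. Of these 4, KO was higher for 1 (15.1% of all tested) and lower for 3 (13.7%). The log2 differences of the 22 ranged from -1.53 to 0.59 with a median of -0.07, against a median of 0.01 over all tested probe sets. The 10 probe sets under the filter had signals from 1.43 to 89.4.

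**Figure D1:**
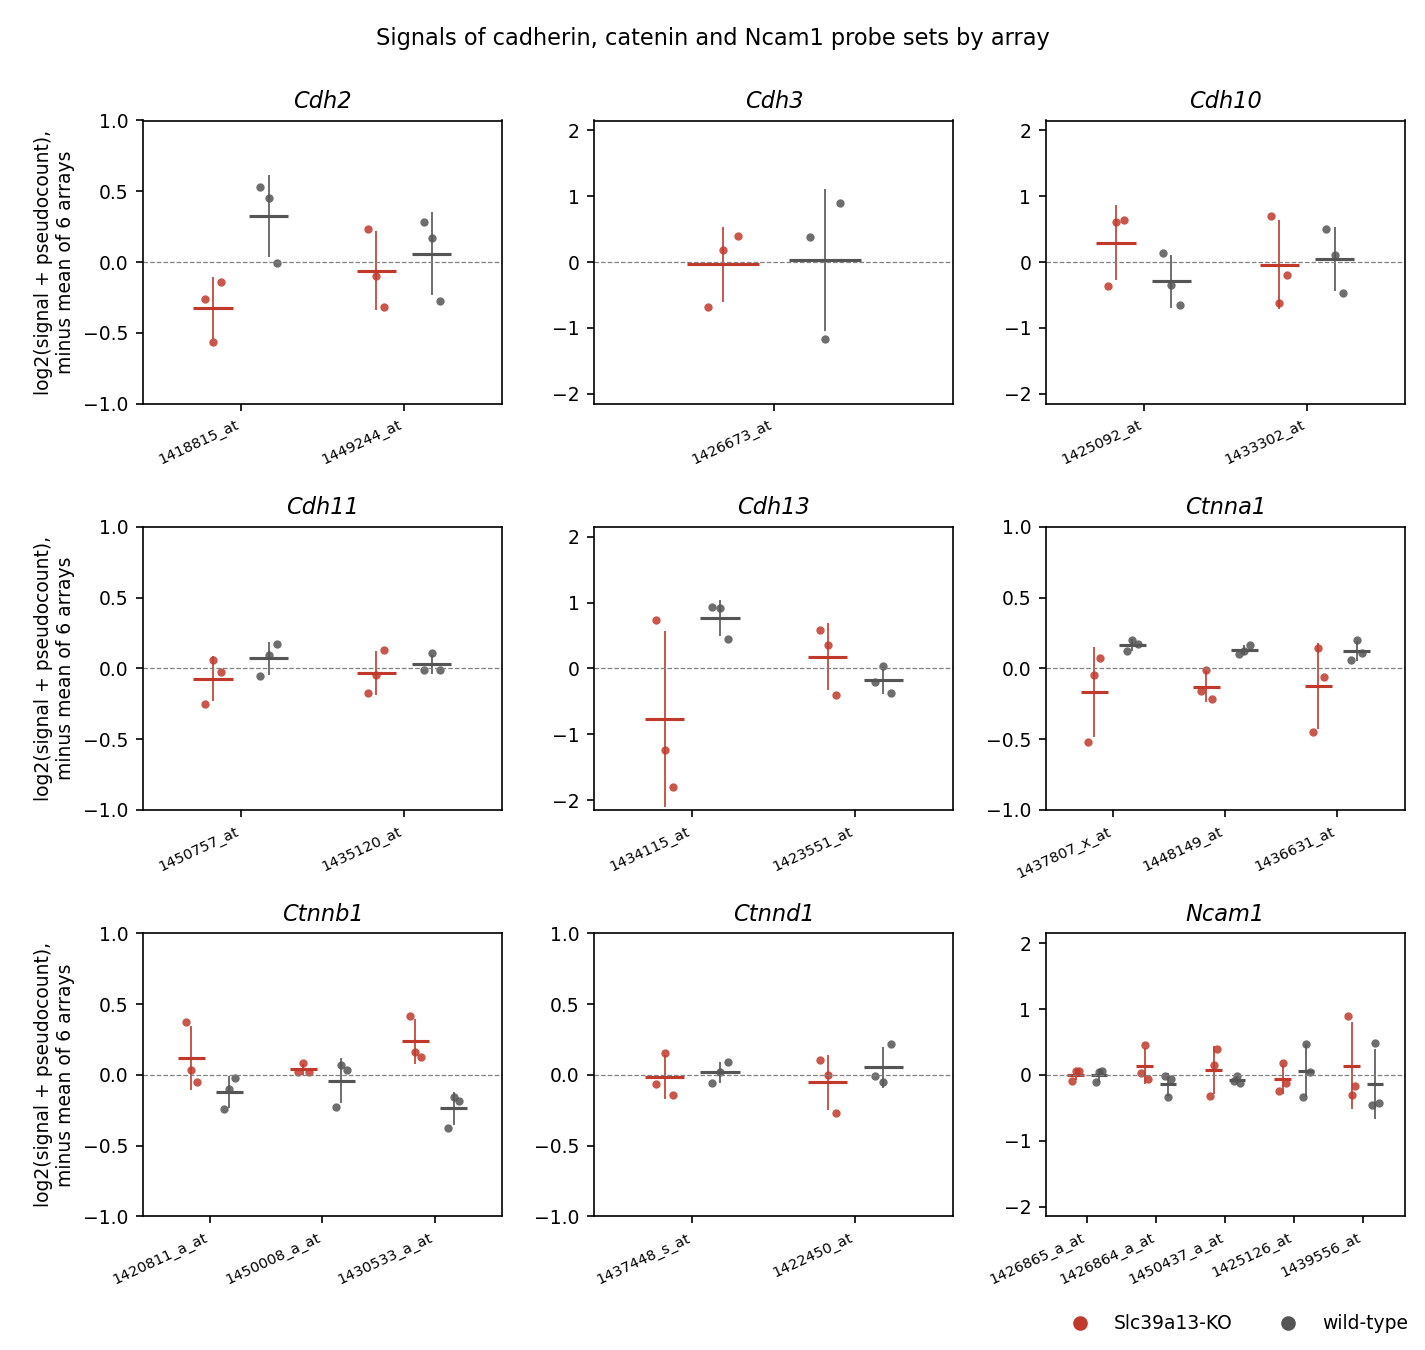
Signals of the 22 tested probe sets in Slc39a13-KO (red, left) and wild-type (gray, right) chondrocytes, as log2(signal + pseudocount) minus the mean of the 6 arrays for that probe set. Points are arrays, horizontal lines are group means and vertical lines are SD (n = 3 each), and the vertical scale is wider for Cdh3, Cdh10, Cdh13 and Ncam1. The groups lie apart for Cdh2 1418815_at, for Ctnna1 1437807_x_at and 1448149_at, and for Ctnnb1 1430533_a_at.

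Cdh2 encodes N-cadherin, the classical cadherin of mesenchymal cells. Its probe set 1418815_at had signals of 308, 248 and 335 in KO cells and 539, 512 and 369.6 in wild-type cells. All 3 KO arrays lay below all 3 wild-type arrays, and wild-type replicate 3 lay closest to them. The log2 difference was -0.65 ± 0.18 (SE), with a 95% interval of -1.06 to -0.25, and it did not pass the threshold (limma, adjusted p = 0.0623). Without KO replicate 3 it passed at -0.74 (adjusted p = 0.0483), and over the alternatives tried the adjusted p ranged from 0.0483 to 0.232. The other Cdh2 probe set, 1449244_at, had 302, 237 and 203 in KO cells and 312, 288 and 209.6 in wild-type cells. Here the groups overlapped, and the log2 difference was -0.12 with an interval of -0.59 to 0.35. The log2 ratio of 1418815_at to 1449244_at was 0.03, 0.06 and 0.70 on the KO arrays and 0.77, 0.81 and 0.80 on the wild-type arrays. This difference between the probe sets, -0.53, had an exact two-sided permutation p of 0.1, the smallest that 3 arrays against 3 allow (0.133 after adjustment over the 4 pairs of probe sets compared, which were chosen after their values were seen).

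Cdh11 encodes cadherin-11, a type II cadherin of mesenchymal and bone-forming cells. On 1450757_at it had 3525, 4377 and 4129 in KO cells, against 4046, 4475 and 4737 in wild-type cells. The groups overlapped, with means of 4011 ± 438 in KO and 4419 ± 349 in wild-type cells (SD, n = 3 each). The log2 difference was -0.14, and its 95% interval of -0.37 to 0.08 leaves room for a decrease to 0.78-fold but not for a doubling or halving. On 1435120_at, with signals of 198 to 247 in KO and 223 to 242 in wild-type cells, it was -0.06 (-0.44 to 0.32). Markers of fibroblasts and perichondrium, cells that also carry Cdh11 and Cdh2, were higher in KO cells at 6 and lower at 2 of 14 tested probe sets, with summed signals of 73431 to 94234 in KO and 52256 to 63666 in wild-type cells. The largest changes among those past the threshold were those of the matrix genes Col1a2 (0.74, limma, adjusted p = 0.00534), Col1a1 (0.69, 0.0401), Lum (0.64, 0.00749) and Postn (0.55, 0.0212). The 2 lower probe sets were those of the fibroblast markers Pdgfra (-0.51, limma, adjusted p = 0.0359) and Thy1 (-0.49, 0.0213), so the list was split. The part of fibroblasts and perichondrium in the values of Cdh11 and Cdh2 was not tested.

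The epithelial cadherins were dim. Cdh1, or E-cadherin, has a single probe set on the array, 1448261_at, and it was under the filter. Its signals were 22.0, 60.3 and 62.6 in KO cells and 14.0, 1.43 and 34.3 in wild-type cells, each below the median of its own array. Tested without a filter, it had a log2 difference of 1.35 with an interval of -0.09 to 2.79 (limma, adjusted p = 0.326), and the size of such a difference rests on the pseudocount. Cdh3, or P-cadherin, is the neighboring protein-coding gene to Cdh1 on the same chromosome (GRCm38.p6). Its tested probe set 1426673_at had 62.4, 119 and 139.8 in KO cells and 139.0, 41.9 and 202 in wild-type cells. The wild-type arrays held both the lowest and the highest value. The log2 difference was -0.07, with an interval of -1.22 to 1.08 that excludes neither a doubling nor a halving. The other Cdh3 probe set, 1441255_at, was under the filter at 16.3 to 28.8 in KO and 14.4 to 24.4 in wild-type cells.

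Markers of mesothelial cells, an epithelial layer that covers the inner face of the rib cage, moved with genotype on the same arrays. Of 19 tested probe sets of this list 16 were lower in KO cells and 0 were higher, with a median log2 difference of -2.65, against 0.01 over all tested probe sets. The summed signal of its 14 genes, at the brightest probe set of each, was 985 to 1600 in KO and 5439 to 8866 in wild-type cells. Without KO replicate 1 there were 16 lower as well, and leaving out each other array in turn gave 14 to 17 lower and 0 higher. The largest decreases were those of the uroplakins Upk1b (-4.38, limma, adjusted p = 0.00191) and Upk3b (-4.12, 0.00135) and of the keratins Krt19 (-3.60, 0.0187) and Krt8 (-3.26, 0.00841). Of the other epithelial markers Krt14, a keratin of the basal epidermis, was lower at 2 probe sets, with the larger log2 difference at -4.01 (limma, adjusted p = 0.000597), and 0 were higher. The part of mesothelial cells in the values of Cdh1, Cdh3 and Cdh2, the catenins and their partners was not tested.

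Snai1 and Snai2 encode Snail and Slug, transcriptional repressors of E-cadherin. Snai1 had 1363, 1346 and 1183 in KO cells, against 860.2, 918 and 821 in wild-type cells, and rose by 0.58 (limma, adjusted p = 0.00954). Snai2 rose by 0.63 at 1447643_x_at (adjusted p = 0.0260), with 19149, 14119 and 12484 in KO cells and 9648, 9949 and 9560.0 in wild-type cells. At its other probe set, 1418673_at, the log2 difference was -0.04 with an interval of -0.44 to 0.35. These were the only probe sets of the 15 tested from 7 E-cadherin repressors to pass, and the list had a median of 0.15. With each array centred on its median neither passed (adjusted p = 0.183 for Snai1 and 0.0758 for Snai2). Without wild-type replicate 3 neither passed (0.0514 and 0.0880), and Snai2 also did not pass without wild-type replicate 1 (0.0923), wild-type replicate 2 (0.0971) or KO replicate 2 (0.0579).

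**Figure D2:**
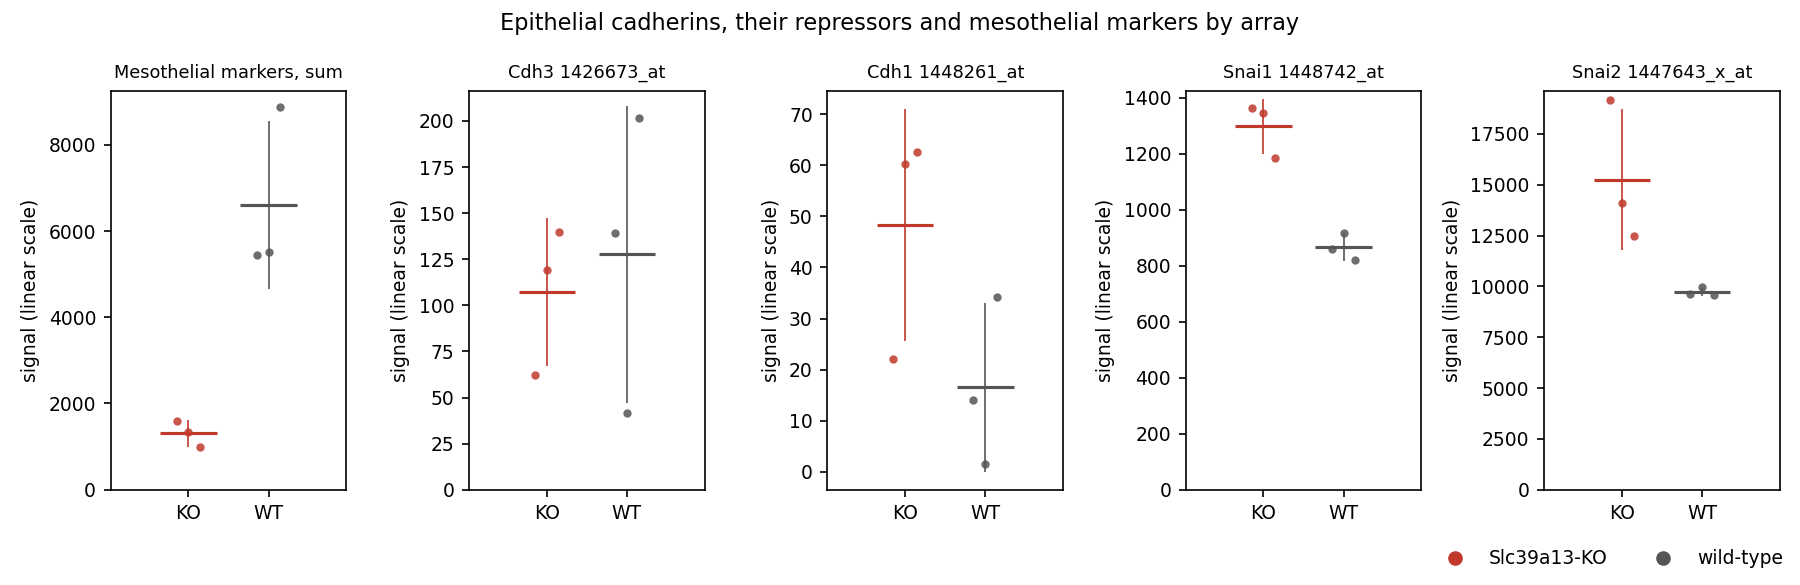
Signals on a linear scale in Slc39a13-KO (left) and wild-type (right) chondrocytes. Panels show the mesothelial markers summed and the brightest probe sets of Cdh3, of Cdh1, and of Snai1 and Snai2, repressors of Cdh1. Points are arrays, horizontal lines are means and vertical lines are SD (n = 3 each). The mesothelial sum, Snai1 and this Snai2 probe set separate the groups, while the Cdh3 and Cdh1 signals overlap between them.

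The probe sets of Cdh13 and Cdh10 were dim. Cdh13 encodes T-cadherin, which is held in the membrane by a lipid anchor and has no tail for catenins. Its probe set 1434115_at had signals of 116, 23.6 and 13.4 in KO cells and 134, 133 and 93.4 in wild-type cells. KO replicate 1 lay among the wild-type arrays, and KO replicates 2 and 3 lay far below them. The log2 difference of -1.53 (95% interval -2.88 to -0.18) did not pass (limma, adjusted p = 0.167). Without KO replicate 1, which also differed from the other arrays as a whole, it was -2.28 and passed (adjusted p = 0.0119), so that 1 array decided this call. The second tested probe set of Cdh13, 1423551_at, had 92.5, 77.1 and 42.8 in KO and 49.7, 60.7 and 43.7 in wild-type cells, with a log2 difference of 0.36 (-0.58 to 1.30) in the other direction. The remaining probe sets of the gene, 1454015_a_at and 1431824_at, were under the filter at 1.81 to 40.1. Cdh10 is a type II cadherin known mainly from brain. Of its 4 probe sets 2 were tested, with log2 differences of 0.59 (-0.37 to 1.55) at 1425092_at and -0.08 (-1.16 to 0.99) at 1433302_at. Signals of its 2 tested probe sets ran from 34.5 to 104 in KO and from 37.7 to 84.5 in wild-type cells. Under the filter, 1460538_at had 87.1, 23.6 and 32.2 in KO and 37.8, 37.9 and 33.1 in wild-type cells, and 1446399_at had 5.20, 38.4 and 3.82 in KO and 9.23, 4.81 and 2.58 in wild-type cells.

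Beta-catenin held the 1 call. Ctnnb1 has 3 probe sets, all tested and all with a mean above wild-type in KO cells. At 1430533_a_at the signals were 4859.8, 4079 and 3986 in KO cells, against 2811, 3273 and 3207 in wild-type cells. All KO arrays lay above all wild-type arrays, with the highest signal in KO replicate 1. The log2 difference was 0.47 ± 0.10 (SE), with an interval of 0.25 to 0.70, or 1.39-fold, and it passed the threshold (limma, adjusted p = 0.0234). At 1420811_a_at the signals were 27378, 21621 and 20381 in KO and 17808, 19690 and 20773 in wild-type cells, which overlapped, with a log2 difference of 0.24 (-0.02 to 0.50, adjusted p = 0.253). At 1450008_a_at they were 6257, 6559.8 and 6254 in KO and 5289.9, 6482 and 6319 in wild-type cells. These overlapped too, with a log2 difference of 0.08 (-0.12 to 0.28), which turned to -0.01 with each array centred on its median. The increase at 1430533_a_at exceeded that at 1450008_a_at by 0.39 and that at 1420811_a_at by 0.23, each with an exact two-sided permutation p of 0.1, the smallest possible. The remaining pair differed by 0.16 (exact p = 0.5). The call did not hold under every setting. It was kept without KO replicate 1, 2 or 3, and was lost without wild-type replicate 1 (adjusted p = 0.102), replicate 2 (0.0737) or replicate 3 (0.0679), and with each array centred on its median (0.252). A mean over the 3 probe sets gave 0 calls among the genes described here.

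Alpha-catenin had lower signals in KO cells at its bright pair of probe sets, and neither passed the threshold. Ctnna1 encodes alpha-E-catenin, which takes the cadherin complex to actin. Its probe set 1448149_at had 7851, 8739 and 7571 in KO cells and 9413, 9557 and 9864 in wild-type cells, with no overlap. The log2 difference was -0.26 (-0.44 to -0.08), with an adjusted p of 0.0877 in limma. At 1437807_x_at the signals were 7946, 11035 and 12038 in KO and 12432, 13126 and 12881 in wild-type cells, again with no overlap. The log2 difference there was -0.33 (-0.63 to -0.03, adjusted p = 0.182), and KO replicate 1 was far below the other KO arrays. The dim 1436631_at overlapped, at -0.25 (-0.92 to 0.43), and 1437275_at was under the filter at 45.5, 39.9 and 1.90 in KO and 41.8, 3.10 and 10.3 in wild-type cells. All 3 tested probe sets of Ctnna1 had a lower mean in KO cells, and at the bright pair the log2 differences correspond to 0.837-fold and 0.795-fold of wild type. Over the alternatives tried, with adjustment over all tested, the adjusted p of 1448149_at ranged from 0.0648 to 0.309 and that of 1437807_x_at from 0.0564 to 0.418.

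Ctnnd1 encodes p120-catenin, and it is the only gene of the 10 on the chromosome of Slc39a13. On 1437448_s_at it had 1020.1, 1190 and 966 in KO and 1026, 1081 and 1139 in wild-type cells. The groups overlapped and the log2 difference was -0.04 (-0.27 to 0.20). On 1422450_at it had 914, 849 and 705 in KO and 843, 819.8 and 992 in wild-type cells, with -0.11 (-0.39 to 0.18). Neither passed (limma, adjusted p = 0.875 and 0.661), and a further probe set, 1445830_at, was under the filter at 74.4, 8.63 and 80.7 in KO and 76.3, 13.2 and 89.4 in wild-type cells.

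Ncam1 mediates homophilic adhesion without calcium. Of its 7 probe sets 5 were tested, and 0 passed, with log2 differences of -0.13 to 0.28 and adjusted p-values of 0.336 to 0.961 in limma. The brightest, 1426865_a_at, had 687, 762 and 769 in KO and 678, 759 and 763 in wild-type cells. These groups lay on top of each other, and the 95% interval of the log2 difference was -0.22 to 0.25. At 1426864_a_at the signals were 535, 718 and 498 in KO, against 515, 411 and 499 in wild-type cells, where KO replicate 2 stood above the rest. Its log2 difference of 0.28 had an interval of -0.08 to 0.64. The other tested probe sets had differences of 0.15 (1450437_a_at), -0.13 (1425126_at) and 0.27 (1439556_at). Under the filter, 1450438_at had 8.23, 11.8 and 66.5 in KO and 52.2, 37.0 and 87.4 in wild-type cells, and 1421966_at had 20.5, 58.5 and 2.85 in KO and 5.60, 4.09 and 2.60 in wild-type cells. Probe sets of neural and Schwann cell markers, cells that also carry Ncam1, were neither higher nor lower past the threshold (0 of 7), and their summed signal was 461 to 530 in KO and 502 to 584 in wild-type cells. The lowest p-values in that list were those of Mbp, at -0.91 (limma, adjusted p = 0.0865), and Sox10, at 1.09 (0.300). Among skeletal muscle markers, whose precursors carry Ncam1 and Cdh2, 1 of 9 was higher (Tnnt3, at 1.17) and 1 lower (Acta1, at -0.72). The list had a median of -0.59. Its summed signal was 2579 to 2980 in KO and 2379 to 2638 in wild-type cells, and Tnnt3 was the largest part of the KO sum. That gene had 1845, 1620 and 1343 in KO and 606, 712 and 804 in wild-type cells.

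**Figure D3:**
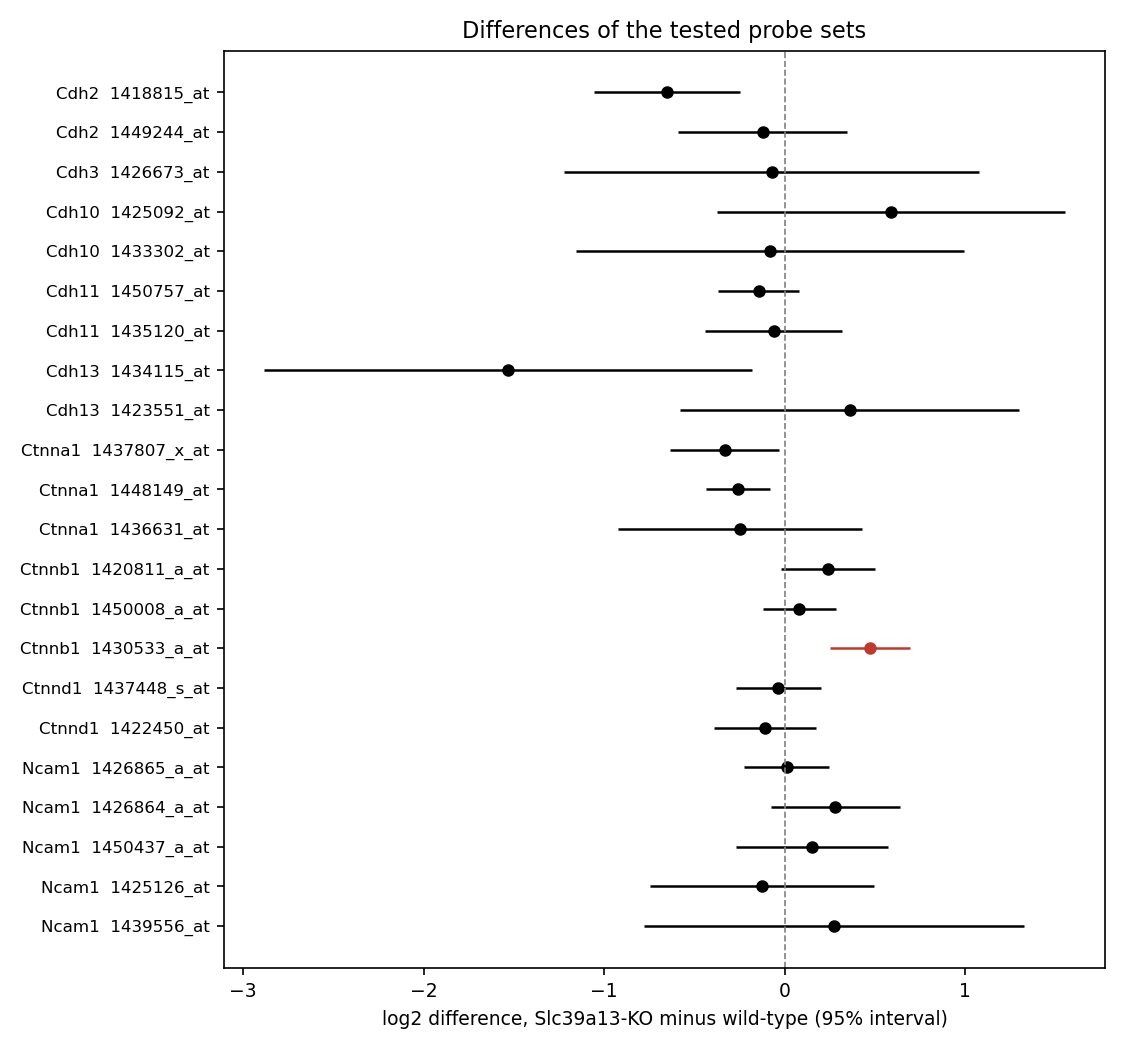
Log2 differences, Slc39a13-KO minus wild-type, of the 22 tested probe sets with their 95% intervals from limma (n = 3 arrays each). Red marks the 1 probe set with an adjusted p under 0.05, Ctnnb1 1430533_a_at at 0.47. Intervals are wide for the dim Cdh3, Cdh10 and Cdh13 probe sets and narrow for Cdh11, Ctnnb1 and Ctnnd1.

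Several proteins join the cadherin complex to actin or act on it at the junction. Of 41 tested probe sets of 16 such adherens junction partners, 4 from 3 genes were lower and 1 was higher in KO cells, against 3.36% lower and 3.44% higher over the whole array. The list had a median of -0.18, against 0.01 over all tested probe sets, and its difference from the cadherins and catenins above was not tested. Vcl, or vinculin, which binds alpha-catenin under tension, fell by 0.76 at 1416156_at (limma, adjusted p = 0.00226), with 3629.9, 4573 and 4129 in KO and 6752, 7062 and 6931 in wild-type cells. The groups were far apart relative to the spread within each. Its second probe set, 1416157_at, had a log2 difference of -0.42 (adjusted p = 0.226). Tjp1 encodes ZO-1, a scaffold that also binds alpha-catenin. It fell by 0.73 (adjusted p = 0.00131), with 2502, 2786 and 2689 in KO and 4231, 4429 and 4589.7 in wild-type cells. Lima1, or EPLIN, links alpha-catenin to actin filaments and was lower at 2 of 4 tested probe sets, with log2 differences of -0.48 and -0.57 (adjusted p = 0.0130 and 0.0155). The other Lima1 probe sets had -0.20 and 0.13. Ptprm, a receptor phosphatase found with cadherins at cell contacts, rose by 0.71 (adjusted p = 0.00867), with 823, 911 and 877 in KO and 464, 586 and 547 in wild-type cells.

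Vcl and Tjp1, at the probe sets that passed, also did so with quantile normalization, with each array centred on its median and with each of the 6 arrays left out in turn. Ptprm passed with each array left out and did not pass with median centring (adjusted p = 0.148). Both Lima1 probe sets stayed past the threshold when each KO array was left out. They were not past it without wild-type replicate 1 (0.0563 and 0.0667), replicate 2 (0.0569 and 0.0602) or replicate 3 (0.0735 and 0.0828), or with median centring (0.123 and 0.0997).

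Related genes were read beside the 6.8% of all tested probe sets that passed in either direction. Of 17 further cadherins 6 had a tested probe set and 0 passed (limma). The lowest p-values belonged to Cdh19, at 0.35 (adjusted p = 0.562), and Cdh22, at 0.26 (adjusted p = 0.699). Among 12 tested probe sets of 6 other catenins 1 was lower and 0 were higher. This was Ctnnal1, an alpha-catenin relative, which fell by 0.55 at 1420930_s_at (adjusted p = 0.0418), with 476, 499.9 and 386 in KO and 665, 602 and 735 in wild-type cells. It did not pass without KO replicate 2 (0.0568), KO replicate 3 (0.0650), wild-type replicate 1 (0.135), replicate 2 (0.0953) or replicate 3 (0.164), or with median centring (0.105). Jup, which encodes plakoglobin, the relative of beta-catenin in desmosomes, had 258, 142 and 157 in KO and 263, 317 and 264 in wild-type cells. The groups did not overlap, and the log2 difference of -0.62 did not pass (adjusted p = 0.149). Of 15 tested probe sets of Ncam1 relatives and the enzymes that add polysialic acid to it, 1 was lower, and the list had a median of -0.30. Alcam, an adhesion molecule of the immunoglobulin superfamily, fell by 0.91 at 1437467_at (adjusted p = 0.00603), with 342, 334 and 381 in KO and 646, 783 and 593 in wild-type cells. Its other 3 probe sets were lower in KO without overlap, at -0.73, -0.50 and -0.34, and did not pass (adjusted p = 0.0645, 0.0672 and 0.144). At 1437467_at Alcam also passed with median centring (adjusted p = 0.0205) and with each array left out in turn.

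**Figure D4:**
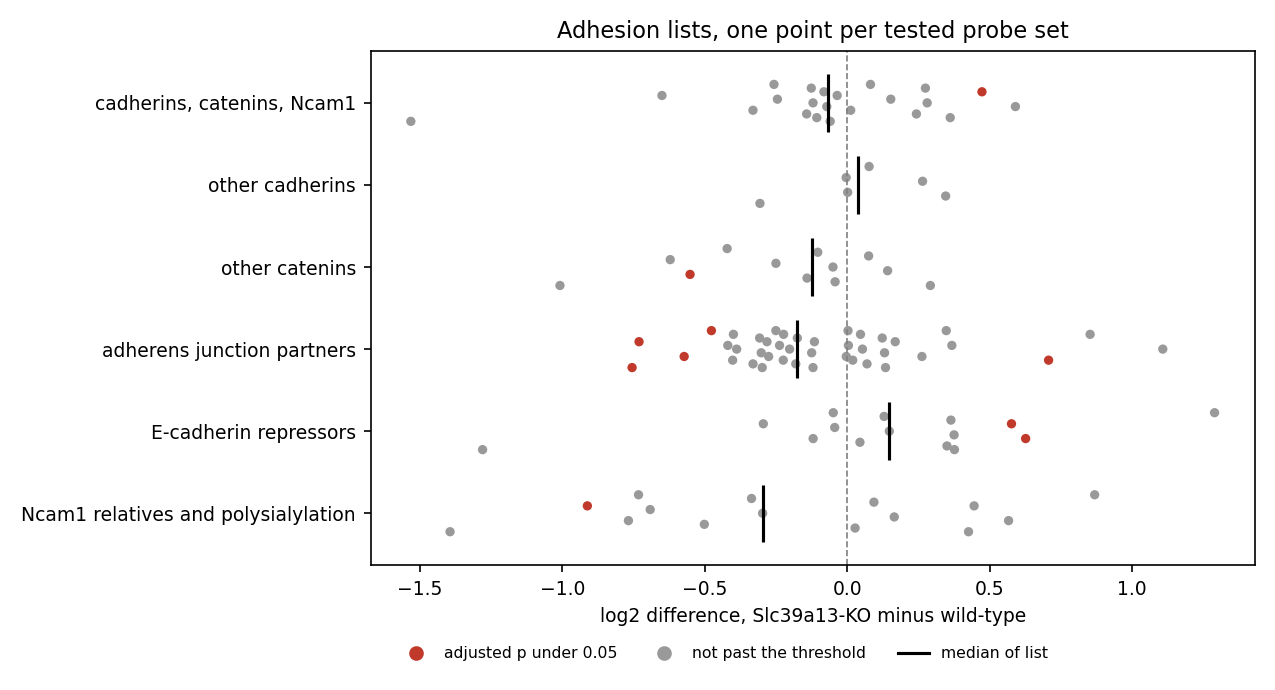
Log2 differences, Slc39a13-KO minus wild-type, of every tested probe set in 6 adhesion lists, with 1 point per probe set and a black line at the median of each list. Red points had an adjusted p under 0.05 in limma. The cadherin, catenin and Ncam1 list has 1 such point, above 0, and the adherens junction partners have 4 below 0 and 1 above it.

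The genes whose pattern over the 6 arrays was most like that of 3 of the genes described, chosen for the lowest p at the brightest tested probe set, are given as a description, since the arrays carry both the genotype and the array that stood apart. Among 12726 genes, those most like Cdh13 1434115_at were 2010320M18Rik, Fam32a and Cry1 (Pearson r = 0.992, 0.991 and 0.990). For Ctnna1 1437807_x_at they were Ik, Chrac1 and Stradb (r = 0.998, 0.997 and 0.995), and for Cdh2 1418815_at they were Carnmt1, Pgpep1 and U90926 (r = 0.997, 0.991 and 0.990).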

How the data were processed

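RNA of cultured rib chondrocytes was labeled as biotinylated cRNA and hybridized to Mouse Genome 430 2.0 arrays, 3 of Slc39a13-KO and 3 of wild-type cells. The deposited intensities are on a linear scale; per the labels the authors made them with MAS5 (version not stated), while their methods name gcRMA. Each array has a trimmed mean of 500.003 (2% trimmed at each end), which is the form of MAS5 scaling. Of 45101 probe sets, 932 with several genes, 9160 with none and 64 controls were left out. Signals were taken as log2(signal + 7.96), the pseudocount being the 10th percentile of all values, and only probe sets whose mean reached the 40th percentile (5.80) were tested. KO minus wild type was fitted with limma 3.58.1 in R 4.3.3 (lmFit, eBayes with trend) over 23309 probe sets, with Benjamini-Hochberg adjustment. Differences are on the log2(signal + pseudocount) scale and understate changes of dim probe sets. The comparison was also run on simulated data with independent noise for each probe set. That simulation held no shift of a whole array, so it does not cover the array that stood apart.

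All 10 genes are given with each of their probe sets. From each other list up to 4 genes past the threshold with the largest changes are named, or 2 with the lowest p where none passed. Other genes were named after their values were seen. The genes and lists were chosen with earlier results of these data known. Annotation names matched the RefSeq gene table (GRCm38.p6) for all 32 probe sets. Alternatives changed the filter, pseudocount, scaling, summary per gene, moderation or test, the replicate block, or left out 1 array at a time. The number of arrays limits the precision.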

Additional observations from a re-analysis of the deposited data

How the results depend on the processing

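The number of cadherin, catenin and Ncam1 probe sets past the threshold was 1 in the analysis reported. It was 0 with each array centred on its median, with the brightest probe set or the mean of the probe sets of each gene, with limma without its trend, with the methods' t-test after Benjamini-Hochberg adjustment and with the replicate block, and 3 with that t-test unadjusted (Cdh2 1418815_at, Ctnna1 1448149_at and Ctnnb1 1430533_a_at). Leaving out 1 array gave 0 to 2. The cause of these shifts was not tested. Over the whole array the numbers higher and lower in KO cells were 131 and 260.0 with median centring, 462 and 418 with the mean per gene, 47 and 61 without the trend, 2326 and 2043 with the unadjusted t-test, 45 and 39 after its adjustment and 415 and 422 with the replicate block. Leaving out 1 array gave 250.0 to 1074 higher and 189 to 1210.0 lower, and leaving out any 1 wild-type array gave fewer than leaving out any 1 KO array. Slc39a13, at -2.67, did not pass after adjustment of the t-test (adjusted p = 0.0727) and passed under the other alternatives. For Ctnnb1 1430533_a_at, limma without its trend gave an adjusted p of 0.138, the adjusted t-test 0.164 and the replicate block 0.0731. The labels do not say whether arrays with the same replicate number were handled together. Deviations of arrays with the same number correlated at 0.03, 0.01 and -0.05.

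The median log2 difference of the tested probe sets was -0.16 with median centring and ran from -0.075 to -0.0060 when 1 array was left out. Among single probe sets 343 values kept direction and side, 7 fell short of the threshold, 4 passed it and 19 changed sign. Sign changes were -0.0084 with quantile normalization and -0.083 with median centring for Ncam1 1426865_a_at, and -0.014 with median centring for Ctnnb1 1450008_a_at. With 1 array left out, values ranged from -0.68 to 0.36 for Cdh3 1426673_at, -0.14 to 0.012 for Cdh11 1435120_at, -0.29 to 0.0077 for Cdh2 1449244_at, -0.45 to 0.21 for Cdh10 1433302_at, -0.12 to 0.027 for Ctnnd1 1437448_s_at and -0.010 to 0.14 for Ctnnb1 1450008_a_at. For Ncam1 they ranged from -0.10 to 0.58 at 1439556_at, -0.043 to 0.064 at 1426865_a_at, -0.0048 to 0.35 at 1450437_a_at and -0.32 to 0.080 at 1425126_at. The scaling and leave-one-out alternatives for the other lists were added after the data were seen.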
